A study of Mus musculus with 6 samples.

Results

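The genes described here are 10 immediate-early and stress genes of the mouse, Fos, Fosb, Jun, Junb, Atf3, Egr1, Ier2, Dusp1, Ppp1r15a and Gadd45b, measured in single nuclei of subcutaneous lung tumors. They were chosen by symbol from the gene table that the 6 libraries share, so they are 10 of 22623 genes, and each symbol was found in every library. The tumors grew from TC1 cells, a mouse lung tumor line, under the skin of C57BL/6 mice whose MCT2 gene (Slc16a7, a carrier of pyruvate and lactate) is flanked by loxP sites and which carry an inducible Cre. All mice were 8 weeks old when treatment began. The 3 CO mice received vehicle and the 3 KO mice received tamoxifen, each for 5 days, and all tumors were taken after 24 days of growth. Both groups therefore share the conditional allele and the Cre transgene, and tamoxifen itself cannot be told apart from the deletion, since no mice without Cre were given tamoxifen. The deletion acts in the host, so the injected tumor cells keep their own MCT2 gene. Each library is 1 tumor of 1 mouse.

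Immediate-early genes are transcribed within minutes of a stimulus, without new protein synthesis, because the factors that start them are already present in the cell. Growth factor and stress kinases act on these factors at the promoters. Fos, Fosb, Jun, Junb and Atf3 encode basic leucine zipper proteins that pair with each other as the AP-1 transcription factor. Egr1 encodes a zinc finger factor and Ier2 a small nuclear protein of the same early wave. Dusp1 encodes a phosphatase that switches off MAP kinases, Ppp1r15a the phosphatase subunit GADD34 that ends the translation block of the integrated stress response, and Gadd45b an activator of stress kinases. The same genes are also known to be induced when tissue is cut, warmed or dissociated, and in tumors they serve as a readout of growth signalling.

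Some of the sequences that carry the signal into these genes lie just before the transcription start. Promoters of 5 members are shown because they cover the kinds of site found in the set. Each is the 250 bases before the start, 5′ to 3′ on the gene's own strand, from RefSeq on build GRCm38.p6. Capitals mark TGACG, its palindrome TGACGTCA (the cAMP response element, bound by CREB and ATF family factors), the variant TGACATCA, and TATAAA, each on either strand.
Fos, chr12:85473640-85473889, plus strand: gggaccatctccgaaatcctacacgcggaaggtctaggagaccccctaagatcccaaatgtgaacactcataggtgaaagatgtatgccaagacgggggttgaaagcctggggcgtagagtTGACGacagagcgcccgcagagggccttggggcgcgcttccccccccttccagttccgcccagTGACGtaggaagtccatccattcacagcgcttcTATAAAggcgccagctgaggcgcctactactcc
Jun, chr4:95052223-95052472, minus strand: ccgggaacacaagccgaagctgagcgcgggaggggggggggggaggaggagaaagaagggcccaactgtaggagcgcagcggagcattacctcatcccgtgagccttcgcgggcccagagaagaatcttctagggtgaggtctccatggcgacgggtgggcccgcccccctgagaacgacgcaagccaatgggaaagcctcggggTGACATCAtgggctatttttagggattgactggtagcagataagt
Atf3, chr1:191183334-191183583, minus strand: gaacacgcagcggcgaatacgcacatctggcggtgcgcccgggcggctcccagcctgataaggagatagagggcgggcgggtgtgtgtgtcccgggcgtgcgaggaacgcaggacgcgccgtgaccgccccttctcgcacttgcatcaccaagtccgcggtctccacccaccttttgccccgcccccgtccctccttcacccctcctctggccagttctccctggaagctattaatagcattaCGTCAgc
Dusp1, chr17:26508473-26508722, minus strand: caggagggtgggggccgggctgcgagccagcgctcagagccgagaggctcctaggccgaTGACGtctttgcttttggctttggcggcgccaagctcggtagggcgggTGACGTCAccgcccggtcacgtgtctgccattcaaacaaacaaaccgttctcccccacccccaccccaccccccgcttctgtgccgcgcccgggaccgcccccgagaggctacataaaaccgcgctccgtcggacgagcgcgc
Ppp1r15a, chr7:45526269-45526518, minus strand: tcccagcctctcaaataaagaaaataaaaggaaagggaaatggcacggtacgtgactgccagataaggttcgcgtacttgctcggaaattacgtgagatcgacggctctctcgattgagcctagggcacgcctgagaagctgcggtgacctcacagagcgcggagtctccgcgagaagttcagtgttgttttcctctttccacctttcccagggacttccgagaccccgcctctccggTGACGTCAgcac

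RefSeq promoters were at hand for 8 of the 10 members, all but Egr1 and Ier2. TGACG or its reverse complement lay in 6 of the 8 (Fos, Fosb, Junb, Atf3, Dusp1 and Ppp1r15a), against 19.8% of 27025 promoters of the same length. The palindrome TGACGTCA, which contains TGACG on both strands, lay in 2 (Dusp1 and Ppp1r15a), against 1.77% of all promoters. In Dusp1 it began 143 bases before the start and in Ppp1r15a 12 bases before it. TGACATCA lay in Jun alone of the 8, 45 bases before the start, against 3.41% of all promoters, and TATAAA in Fos (33 bases before the start) and Gadd45b, against 14.3%. CCAAT was found in Jun, Junb and Gadd45b, against 37.5% of all promoters. TGACTCA, the site that AP-1 itself binds, was in none of these 8 windows and in 5.16% of all promoters, and the CArG box of serum response factor in none of the 8 and in 1.62%. These matches describe the letters of the windows and show nothing about binding. Fos lies on chromosome 12 (85473890 to 85477273, plus strand), Jun, a gene of 1 exon, on chromosome 4 (95049034 to 95052222, minus strand), and Atf3 on chromosome 1 (191170296 to 191218039, minus strand; GENCODE vM21, GRCm38). The members are also short genes: their annotated span had a median of 3.81 kb (1.52 to 56.5 kb), against 16.6 kb over all genes. The longest span is that of Dusp1. The RefSeq starts used for the Atf3 and Dusp1 promoters lie inside the GENCODE spans of these genes, not at their ends.

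The nuclei were sorted into classes by the share of their UMIs that fell on up to 20 marker genes of each cell type. UMIs are unique molecular identifiers, each counted as 1 captured RNA molecule. Of 17514 nuclei analysed (7660 CO and 9854 KO), 9237 were tumor-like (led by Ank3, Mecom, Adgrl3 and Slit2), 5430 macrophage-like (St18, Mrc1, Adgre1, Cybb) and 467 T/NK-like (Tox, Camk4, Skap1, Themis). A further 2008 nuclei are called unassigned: they fell below the marker levels, or met a level but held too many UMIs of another list. In KO replicate 3 the median tumor marker share of unassigned nuclei was 0.564%, above the tumor level of 0.5%. The median depth was 5136 UMIs in tumor-like, 1109.5 in macrophage-like, 946 in T/NK-like and 870.5 in unassigned nuclei, so every share of nuclei below is given after each nucleus was thinned at random to 500 UMIs. The libraries held between 13252572 and 22057084 UMIs, with medians of 1094 to 4873.5 UMIs per nucleus, and pairs of libraries shared 19 to 25 barcodes. The tumor markers used to sort the nuclei summed to 1.78% of UMIs in tumor-like and 0.201% in macrophage-like nuclei. Of the 20 listed, 4 had their highest level in macrophage-like nuclei, among them Cadm1, which was left out of the sorting. No cell type is known to lack the members, so the share that free RNA gives them could not be set from a class without them. The targeted gene did not separate the groups. Slc16a7 stood at 92.5, 91.6 and 165 CPM (UMIs scaled to a total of 1000000) in the macrophage-like nuclei of CO replicates 1 to 3 and at 118, 143 and 155 CPM in those labelled KO (log2 KO/CO 0.29, SE 0.28, adjusted p = 0.834 by edgeR's quasi-likelihood test with Benjamini-Hochberg adjustment). Counts at the 3′ end of the message need not fall when an inner exon is removed, so the groups are called by their labels.

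UMI totals set how firmly each member can be read. Jun, Junb, Egr1 and Ier2 had 24586, 12825, 10476 and 7386 UMIs over all nuclei, and the other 6 members had 524 (Fosb) to 1950 (Gadd45b). In tumor-like nuclei Jun, the AP-1 subunit with the most UMIs, stood at 424, 382 and 184 CPM in CO replicates 1 to 3 and at 390, 100 and 128 CPM in KO replicates 1 to 3. CO replicates 1 and 2 and KO replicate 1 were thus high and the other 3 libraries low, and the groups overlapped. In macrophage-like nuclei of the same libraries Jun was 236, 201 and 126 CPM for CO, against 219, 51.7 and 113 CPM for KO, and the same 3 libraries were the highest. Ier2 kept that split of the libraries in tumor-like nuclei, at 105, 143 and 68.6 CPM for CO, against 96.4, 33.1 and 51.2 CPM for KO. Junb did too, at 201, 221 and 119 CPM for CO, against 155, 66.4 and 93.1 CPM for KO. Egr1 did not follow it: its level in tumor-like nuclei was 98.0, 162 and 130 CPM for CO, against 119, 136 and 119 CPM for KO, with the lowest value in CO replicate 1.

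Summed over the 10 members, tumor-like nuclei held 914, 1001 and 568 CPM for CO, against 838, 375 and 463 CPM for KO. Macrophage-like nuclei held 615, 687 and 381 CPM for CO, against 645, 275 and 405 CPM for KO. The libraries with high members in one class were thus the libraries with high members in the other. The median mitochondrial share of a library's nuclei was 6.76, 3.97 and 1.33% in CO replicates 1 to 3 and 6.21, 3.82 and 0.889% in KO replicates 1 to 3, so the 3 libraries with the highest summed level also had the 3 highest mitochondrial shares, and its part in the levels was not tested. Unassigned nuclei stood above both classes in every library, at 5440, 3483 and 1187 CPM for CO, against 1872, 2586 and 1212 CPM for KO.

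**Figure D1:**
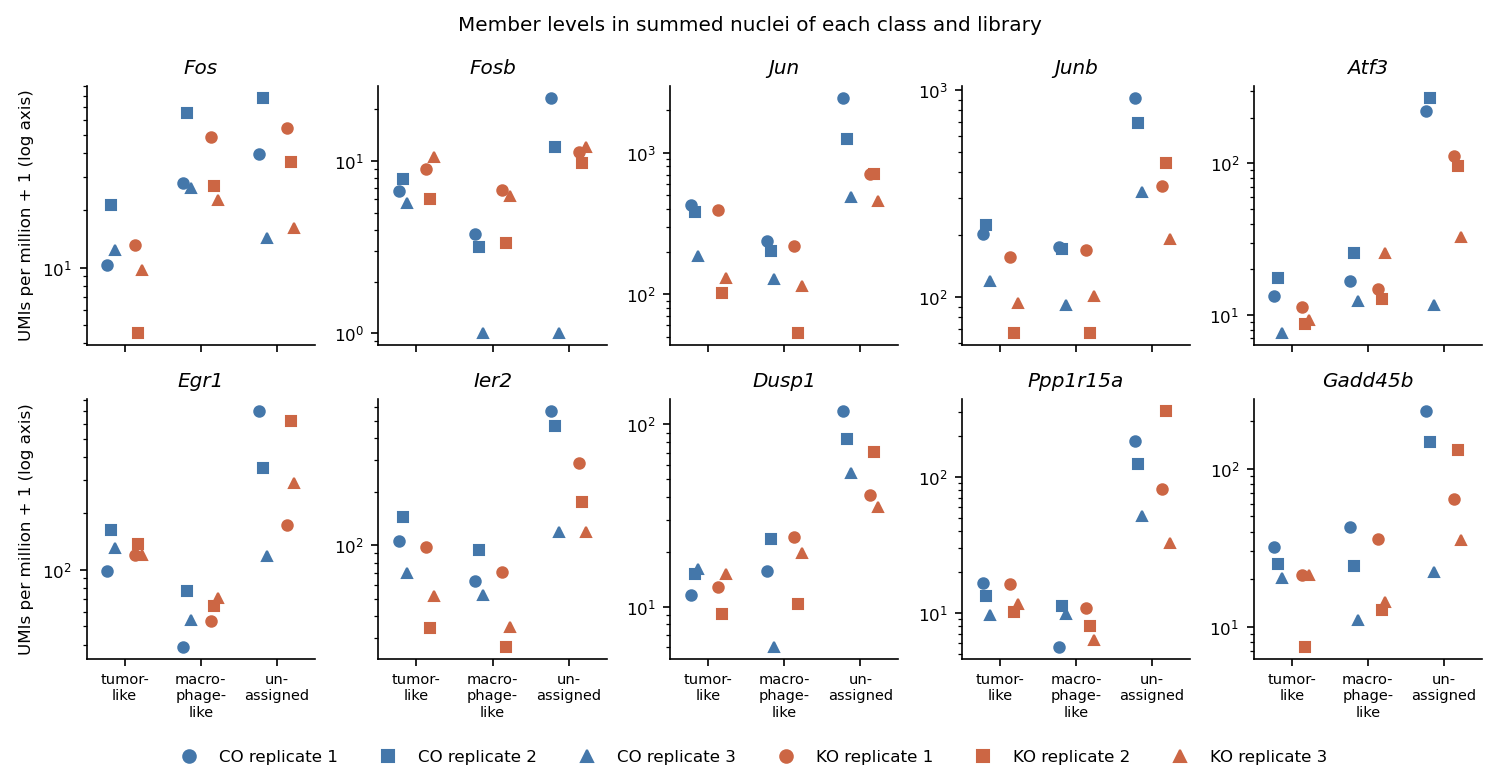
Level of each member in the summed nuclei of a class, as CPM plus 1 on a log axis, for 3 CO libraries (blue) and 3 KO libraries (orange), with symbols for the replicate number. Jun and Ier2 in tumor-like nuclei are high in CO replicates 1 and 2 and KO replicate 1, Fos is higher in macrophage-like than in tumor-like nuclei of every library, and Jun is highest in the unassigned nuclei of every library.

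KO and CO tumors were compared to ask whether loss of host MCT2 changes these genes. No member was called at the thresholds of the study (absolute log2 fold change of at least 0.58 and adjusted p of at most 0.05), in all nuclei or in tumor-like, macrophage-like or T/NK-like nuclei, by edgeR's quasi-likelihood test with Benjamini-Hochberg adjustment over all genes tested. The share of all genes called was 0% in all nuclei, 0% in tumor-like, 0% in macrophage-like and 0% in T/NK-like nuclei, where 13662, 13118, 9976 and 1851 genes were tested. At an unadjusted p under 0.05 there were 661, 861, 506 and 126 genes, none of them a member, and DESeq2 called 12, 32, 3 and 0 genes, again with no member. KO and CO were not tested in unassigned nuclei. All 10 members could be tested in all nuclei and in tumor-like nuclei, 9 in macrophage-like nuclei (Fosb was too low) and only Junb in T/NK-like nuclei.

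In tumor-like nuclei the members' median log2 KO/CO was −0.51, against −0.02 over all genes, and 2 of 10 lay above 0. Junb, at 180 ± 54.0 CPM for CO against 105 ± 45.5 CPM for KO (SD, n = 3 each), had a log2 fold of −0.73 (SE 0.34, adjusted p = 0.595 by edgeR). Jun, at 330 ± 128 against 206 ± 160 CPM, had −0.64 (SE 0.54, adjusted p = 0.608 by edgeR). Egr1, at 130 ± 32.0 against 125 ± 9.81 CPM, had 0.01 (SE 0.22, adjusted p = 0.983 by edgeR). Fosb, at 5.75 ± 1.12 against 7.48 ± 2.28 CPM, had 0.42 (SE 0.30, adjusted p = 0.595 by edgeR). Of the 10 members in tumor-like nuclei, none had KO and CO libraries that did not overlap, while 13% of genes did. In macrophage-like nuclei the median over the 9 members was −0.23 (all genes 0.01), from −0.60 for Ier2 to 0.33 for Dusp1.

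The call turned on 1 library. Without KO replicate 1, Jun (log2 KO/CO −1.46, adjusted p = 0.0382), Ier2 (−1.26, adjusted p = 0.0413) and Junb (−1.11, adjusted p = 0.0419) were called lower in tumor-like nuclei by edgeR, where 13.4% of all genes were called lower. In macrophage-like nuclei without that library, Ier2 (−1.11, adjusted p = 0.022) and Jun (−1.01, adjusted p = 0.0307) were called lower by edgeR, where 9.08% of all genes were. The difference between the 2 classes in their KO against CO change was itself tested: 0 of 10 members and 0% of 12547 genes were called, with 847 genes at an unadjusted p under 0.05, Junb (−0.43, SE 0.17, adjusted p = 0.731 by edgeR) among them, and 8 genes by DESeq2.

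The AP-1 subunits did not sort together between tumor-like and macrophage-like nuclei. Fos was higher in macrophage-like nuclei, and Jun and Egr1 were higher in tumor-like nuclei, each within libraries. Fos stood at 9.28, 20.3 and 11.4 CPM in the tumor-like nuclei of CO and 12.2, 3.50 and 8.66 CPM in those of KO, and at 26.8, 64 and 25.2 CPM and 47.9, 25.9 and 21.6 CPM in macrophage-like nuclei. The macrophage-like value exceeded the tumor-like value in all 6 libraries (log2 tumor-like/macrophage-like −1.63, SE 0.18, adjusted p = 4.37e-09 by edgeR with library as a block). Egr1 in macrophage-like nuclei was 37.9, 76.4 and 52.9 CPM for CO, against 52.5, 63.5 and 69.5 CPM for KO, below the tumor-like value of the same library in all 6 (log2 1.18, SE 0.14, adjusted p = 1.19e-08 by edgeR). Jun was higher in the tumor-like nuclei of all 6 libraries, by 0.18 (KO replicate 3) to 0.94 (KO replicate 2) on the log2 scale (fitted log2 0.76, SE 0.13, adjusted p = 9.69e-06 by edgeR).

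The contrast of Fos with Jun and Egr1 held in every alternative in which they could be tested, 12 for Fos and 13 for the other two. Ppp1r15a (log2 0.73, SE 0.25, adjusted p = 0.0103 by edgeR) and Ier2 (0.60, SE 0.13, adjusted p = 0.00022 by edgeR) were also higher in tumor-like nuclei, but Ppp1r15a was not called without CO replicate 1, and Ier2 was called in 6 of 13 alternatives because its fold of 0.48 to 0.71 lay around the threshold. Atf3, the stress-induced repressor of the family, was lower in tumor-like nuclei (−0.69, SE 0.22, adjusted p = 0.007 by edgeR) but was not called in 3 of 12 alternatives, among them the one without KO replicate 3 (−0.46, adjusted p = 0.0807 by edgeR) and the one limited to nuclei with at least 500 genes and under 5% mitochondrial counts (−0.01, adjusted p = 0.981 by edgeR). Junb (0.18, SE 0.11), Gadd45b (−0.08, SE 0.21) and Dusp1 (−0.36, SE 0.22) were not called. In all, 6 of the 9 members tested were called, against 52.0% of 10726 genes, a share near that of genes at large.

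T/NK-like nuclei held few counts of the members: 68 UMIs of Junb, 63 of Jun, 42 of Egr1, 31 of Ier2, 9 of Gadd45b, 6 of Atf3, 4 each of Fos and Ppp1r15a, 3 of Dusp1 and 0 of Fosb. Against macrophage-like nuclei only Fos was called, lower in T/NK-like nuclei (log2 −2.32, SE 0.59, adjusted p = 0.0035 by edgeR, with 21.8% of genes called). Against tumor-like nuclei, Jun (log2 tumor-like/T/NK-like 1.34, SE 0.21, adjusted p = 7.97e-06 by edgeR) and Egr1 (0.87, SE 0.24, adjusted p = 0.00475 by edgeR) were higher in tumor-like nuclei, with 38.7% of genes called. Egr1 was not called there without KO replicate 1 (0.68, adjusted p = 0.0531 by edgeR). The median over all genes in that contrast was 0.22.

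Other genes of the same pathways also lay on both sides of this contrast, in which 28.6% of all genes were called higher in tumor-like nuclei and 23.4% lower. Of 11 AP-1 partners tested between tumor-like and macrophage-like nuclei, 4 were higher in tumor-like nuclei, led by Fosl1 (log2 2.42), and 4 were lower, led by Batf (−5.60) and Maf (−5.41), which are factors of myeloid and lymphoid cells. Of 16 other immediate-early transcription factors, 7 were higher, led by Nr4a2 (2.78), and 2 lower (Irf1, −1.27, and Klf6, −0.96). Feedback inhibitors of growth and inflammatory signalling divided evenly, with 8 of 22 higher, led by the receptor kinase inhibitor Errfi1 (3.08), and 8 lower, led by Rgs1 (−5.15). Of 11 integrated stress response and damage genes, 6 were higher and 1, Plk3 (−1.27), lower. Heat-shock chaperones were higher in 0 and lower in 2 of 9, upstream kinases and serum response factors higher in 2 and lower in 3 of 17. For 3 lists outside the pathway, interferon-stimulated genes were lower in 7 of 11, G2/M genes higher in 7 of 12, and hypoxia response genes higher in 6 and lower in 3 of 12. In the contrasts with T/NK-like nuclei the largest changes among these lists were Nr4a3 (log2 T/NK-like/macrophage-like 3.90), Pfkfb4 (−3.47) and Nr4a2 (3.07), and Batf (log2 tumor-like/T/NK-like −5.94), Rgs1 (−5.86) and Tnfaip3 (−4.21). Between KO and CO no gene of any of these lists was called.

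Members were met together in a nucleus more often than their separate shares would give, in tumor-like, macrophage-like and unassigned nuclei. At 500 UMIs per nucleus, 72.6% of tumor-like, 75.6% of macrophage-like, 79.2% of T/NK-like and 65.5% of unassigned nuclei held no member. A single member was held by 22.7, 21.1, 19.1 and 24.9% of the nuclei of these classes, so the classes lay close together up to there. For each of the 45 pairs, the nuclei with both members were counted and divided by the number that the members' shares within each library would give if they were independent. Tumor-like nuclei gave 731 co-detections where 419 were expected, a ratio of 1.75, and 42 of 45 pairs lay above 1. The ratio was above 1 in each library, from 1.52 in KO replicate 1 to 2.59 in KO replicate 2. Macrophage-like nuclei gave 238 where 176 were expected (1.35), with 33 of 45 pairs above 1 and library ratios of 0.257 (1 co-detection, KO replicate 2) to 1.99 (CO replicate 1). Unassigned nuclei gave 594 where 232 were expected (2.56), with 42 of 45 pairs above 1 and library ratios of 1.70 to 3.14. In T/NK-like nuclei 10 co-detections stood against 9.29 expected, and 41 of the 45 pairs were never seen. Co-detection could therefore not be read there at this depth. The median ratio over the 45 pairs was 2.29 in tumor-like, 1.44 in macrophage-like and 2.93 in unassigned nuclei. At 1000 UMIs the summed ratios of these classes were 1.44, 1.33 and 2.15, and without thinning 1.36, 1.32 and 2.36. The gap between tumor-like and macrophage-like nuclei thus narrowed at these settings.

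**Figure D2:**
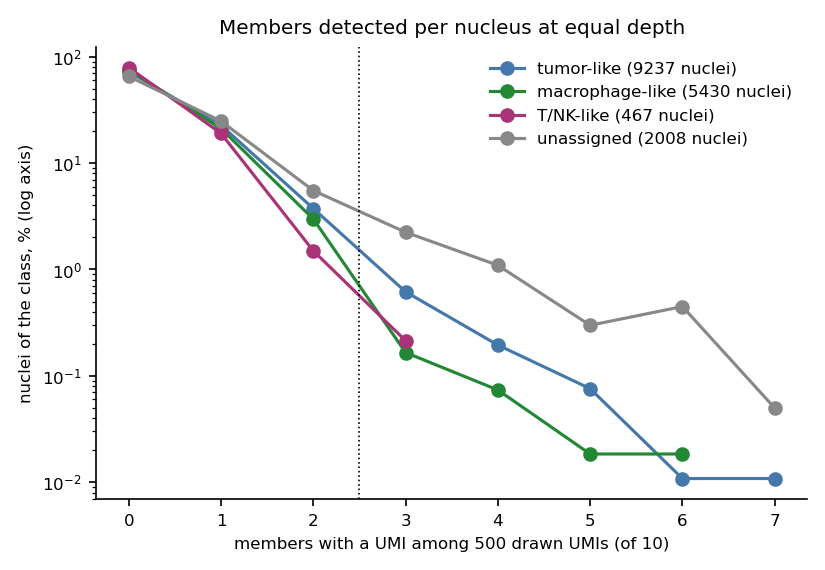
Share of nuclei (percent, log axis) by the number of the 10 members with a UMI after each nucleus was thinned to 500 UMIs, for tumor-like, macrophage-like, T/NK-like and unassigned nuclei. The dotted line marks the limit of 3 members, right of which the unassigned nuclei hold the largest share (4.13%) and macrophage-like nuclei a smaller share (0.276%) than tumor-like nuclei (0.909%).

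The pairs with the largest excess in tumor-like nuclei joined low genes to the early wave. Among pairs seen in at least 5 nuclei, Atf3 and Ier2 were found together in 11 nuclei where 2.03 were expected (ratio 5.42), Fosb and Ier2 in 5 where 1.13 were expected (4.42), Atf3 and Egr1 in 13 where 3.11 were expected (4.17), and Ier2 and Dusp1 in 11 where 2.74 were expected (4.02). The pair met most often, Jun and Junb, was seen in 114 nuclei where 90.4 were expected, a ratio of only 1.26, and Egr1 with Ier2 in 50 where 24.4 were expected (2.05). In macrophage-like nuclei Jun and Junb gave 48 where 36.4 were expected (1.32), while Junb and Ier2 gave 11 where 14.2 were expected (0.773) and Fos and Jun 8 where 7.89 were expected (1.01). In unassigned nuclei Atf3 was joined to Dusp1 in 6 nuclei where 0.629 were expected, to Fos in 6 where 0.764 were expected and to Ppp1r15a in 6 where 0.767 were expected. Nuclei are not replicates, so these ratios carry no test.

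**Figure D3:**
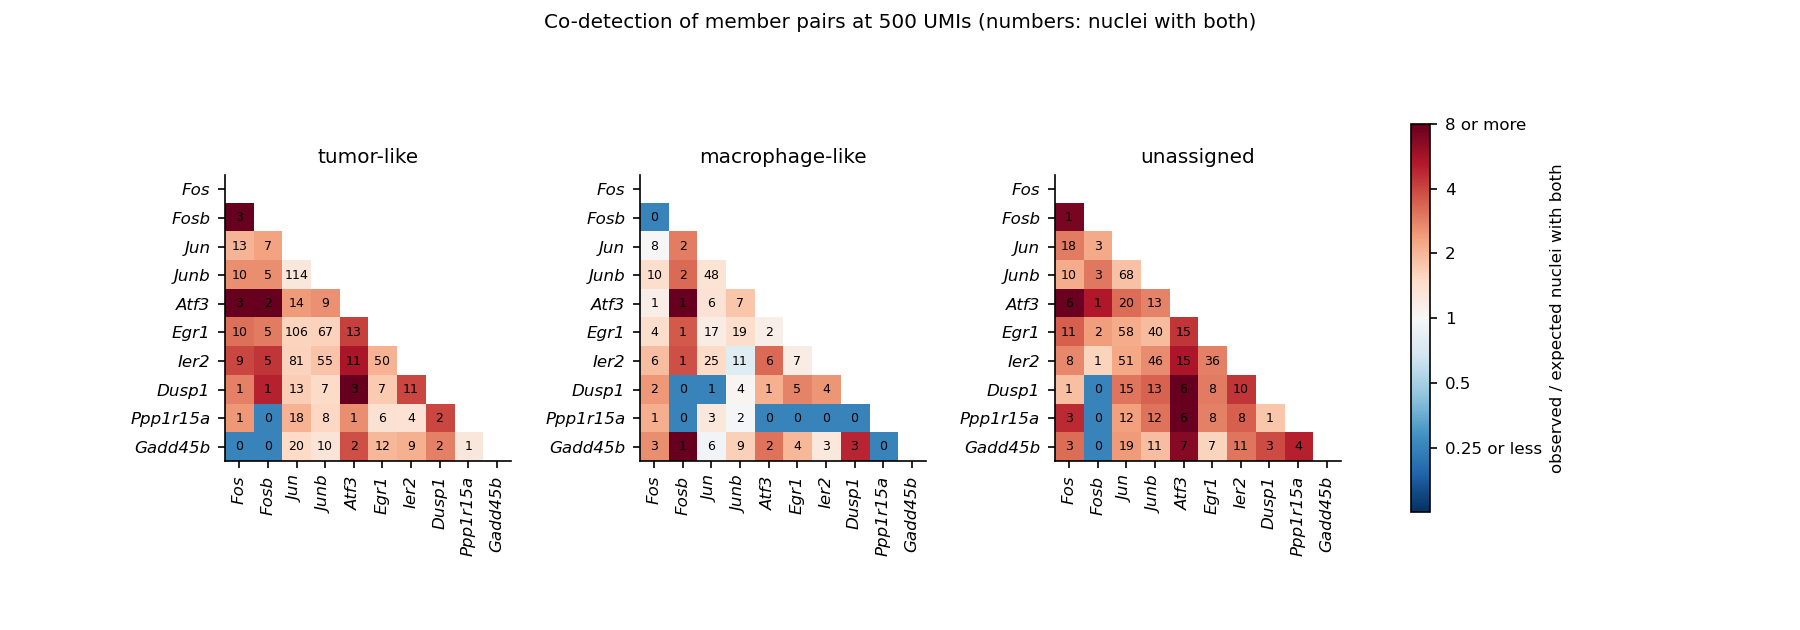
Co-detection of each pair of members at 500 UMIs in tumor-like, macrophage-like and unassigned nuclei, with the number of nuclei holding both members printed in the cell and the ratio to the number expected as color (log scale, red above 1, blue below). Red cells fill 42 of 45 pairs in tumor-like and in unassigned nuclei, and macrophage-like nuclei show paler cells with 8 pairs never seen (0, drawn at the blue of 0.25 or less).

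Pooled over the libraries, each member was found in a larger share of tumor-like nuclei where 2 or more of the others were present than where none was. In tumor-like nuclei Jun was detected in 10.9% of nuclei with none of the other 9 members, in 14.9% of those with 1 other and in 30.1% of those with 2 or more others, and the last share exceeded the first in 6 of 6 libraries. Egr1 went from 5.45% to 7.31% and 18.6%, and Ier2 from 3.29% to 5.07% and 15.5%, both higher in 6 of 6 libraries. Atf3 was found in 0.386% of tumor-like nuclei with no other member, in 0.337% with 1 other and in 3.78% with 2 or more (16 of 423 nuclei), higher in 5 of 6 libraries. Fos went from 0.312% to 0.717% and 3.13% (13 of 415 nuclei), higher in 4 of 6 libraries. Junb was higher in 6 of 6 libraries, Dusp1, Ppp1r15a and Gadd45b in 4 of 6 each, and Fosb in 3 of 6 (4 of 418 nuclei). In unassigned nuclei Atf3 rose from 0.605% to 11.8% (22 of 187 nuclei) and Jun from 11.3% to 53.3%. In macrophage-like nuclei the share with 2 or more others was 1.14 to 5.91 times that with none. Each end rested on 1 nucleus, Ppp1r15a in 1 of 173 and Fosb in 1 of 174, and was higher in 1 of 6 libraries. Fos went from 1.46% to 4.38% (7 of 160 nuclei), Gadd45b from 1.13% to 3.11% and Dusp1 from 0.893% to 2.41%, while Jun went from 8.18% to 12.1%. Egr1 was at 3.09% with no other, 4.42% with 1 other and 3.85% with 2 or more. Of the macrophage-like libraries with such nuclei, Jun was higher in 3 of 6, Fos in 2 of 5 and Egr1 in 3 of 5.

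Nuclei with at least 3 of the 10 members among 500 UMIs are called responding below. There were 184 of 17514 (1.05%, 95% Wilson interval 0.910 to 1.21%), and these intervals cover counting error only. Tumor-like nuclei had 84 of 9237 (0.909%, Wilson interval 0.735 to 1.12%), macrophage-like nuclei 15 of 5430 (0.276%, 0.167 to 0.455%) and T/NK-like nuclei 1 of 467 (0.214%, 0.0378 to 1.20%). Just outside and inside this limit lay 346 tumor-like nuclei with 2 members and 57 with 3. Numbers expected from the members' separate shares are given above for pairs only. How many nuclei would hold 3 or more members if these were independent was not worked out, so responding names a count of members only. Unassigned nuclei had 83 of 2008 (4.13%, 3.35 to 5.10%), so 45.1% of all responding nuclei lay in this class. A new draw of 500 UMIs changed the nuclei called: over 20 draws there were 63 to 94 responding tumor-like nuclei, 11 to 30 macrophage-like, 0 to 1 T/NK-like and 69 to 88 unassigned.

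By library, the responding share of tumor-like nuclei was 0.909, 1.22 and 0.353% for CO and 1.06, 0.278 and 1.38% for KO, with KO replicate 3 and CO replicate 2 the highest and KO replicate 2 and CO replicate 3 the lowest. That of macrophage-like nuclei was 0.367, 0.379 and 0.179% for CO and 0.347, 0 and 0.158% for KO, the 0 being 0 of 288 nuclei, which allows a share of up to 1.04%. The tumor-like share exceeded the macrophage-like share in 6 of 6 libraries, by 0.628 ± 0.386 percentage points (SD over the 6 differences, exact sign-flip permutation test, two-sided p = 0.0312, the smallest that 6 libraries allow, adjusted p = 0.0469 over the 3 pairs of classes). The T/NK-like share was 0 of 31 to 129 nuclei in 5 of the 6 libraries, which allows 2.33 to 9.68%, above every tumor-like share. The difference of 0.713 ± 0.527 points from tumor-like nuclei (exact permutation p = 0.0312, adjusted p = 0.0469) could therefore not be read as a lower share in T/NK-like nuclei at these numbers. T/NK-like and macrophage-like shares differed by −0.0853 ± 0.351 points (exact permutation p = 0.688). The tumor-like against macrophage-like call was lost where nuclei were limited to at least 500 genes and under 5% mitochondrial counts (1.52 points, higher in 5 of 6 libraries, adjusted exact permutation p = 0.0938). Where 2 members sufficed, the difference was 1.65 points, higher in 6 of 6 libraries with the smallest p possible, and the adjusted exact permutation p of 0.0938 came from the larger p of the other pairs.

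The responding share did not separate KO from CO. In tumor-like nuclei it was 0.826 ± 0.439% for CO against 0.906 ± 0.567% for KO (SD, n = 3 each, difference 0.0795 points, exact permutation test, two-sided p = 0.80). In macrophage-like nuclei it was 0.308 ± 0.112% for CO against 0.168 ± 0.174% for KO (difference −0.140 points, exact permutation p = 0.20). With 3 libraries against 3 the smallest p possible was 0.1. The tumor-like difference was small beside its spread and took either sign with other settings.

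**Figure D4:**
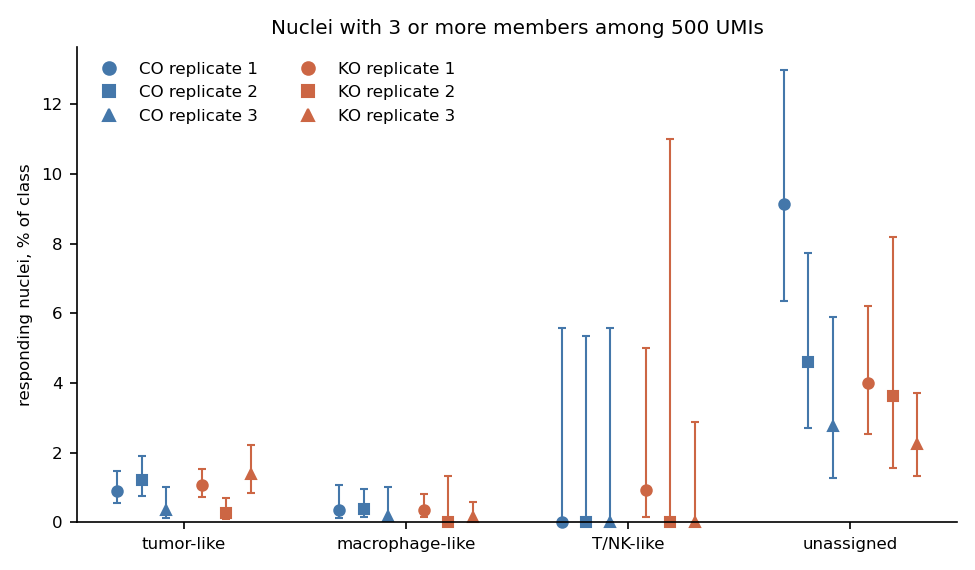
Share of nuclei with 3 or more members among 500 UMIs in each library (percent of the class), with 95% Wilson intervals, for 3 CO libraries (blue) and 3 KO libraries (orange) in 4 classes. Tumor-like shares lie between 0.278 and 1.38% and macrophage-like shares between 0 and 0.379%, and the unassigned nuclei of CO replicate 1 reach 9.15%.

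The responding share of unassigned nuclei was 9.15, 4.61 and 2.76% for CO and 3.99, 3.62 and 2.24% for KO, above the tumor-like share of the same library in all 6. None of these 83 nuclei passed the tumor gate, by its marker level or by its upper limits on the macrophage and T/NK lists. The 14 in KO replicate 3 had a median tumor marker share of 0.714%, above the level of 0.5%, and a macrophage share of 0.202%. In the 83 nuclei 19 of the 20 tumor markers had UMIs. The summed share of the list was 0.288% (0.227 to 0.499% by library), against 0.706% (0.538 to 1.01%) in the other unassigned nuclei. The macrophage list summed to 0.0313% (0.0217 to 0.101%), against 0.160% in the other unassigned nuclei, with Csf1r, Cd163, Stab1, F13a1 and Gm5150 at 0. The T/NK list summed to 0.00686%, with Cd3e, Cd3g, Cd3d, Cd2 and Cd8a at 0. Their median depth was 1800 against 865 UMIs in the other unassigned nuclei. By library it was higher in CO replicates 1 (27 nuclei, 6023 against 1043 UMIs) and 2 (3073 against 945 UMIs). The same held in KO replicates 1 (1448 against 1173 UMIs) and 2 (2977 against 794 UMIs). It was lower in CO replicate 3 (556 against 775 UMIs) and KO replicate 3 (601 against 684 UMIs). Their median mitochondrial share was 3.09 against 1.52%, and higher in each library. When the tumor gate was widened to a marker share of at least 0.2%, a limit chosen after these values were seen, the tumor-like class held 119 responding of 9644 nuclei (1.23%) and the unassigned nuclei 48 of 1601 (3.00%).

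Responding nuclei also stood apart from other nuclei of their class in measures that the call did not use. Responding tumor-like nuclei had a median of 4183.5 UMIs against 5144, a mitochondrial share of 4.92 against 7.64%, and a tumor marker share of 0.915 against 1.49%. The marker share was lower in responding nuclei of each library, with the largest gap in KO replicate 2 (0.689 against 2.29%) and the smallest in KO replicate 1 (1.14 against 1.32%). The depth went either way: 15876 against 4813 UMIs in CO replicate 3, where only 3 nuclei responded, and 877.5 against 3720.5 UMIs in KO replicate 3. The mitochondrial share was higher in responding nuclei of CO replicate 3 (5.65 against 4.68%) and lower in those of every other library. That gap was largest in KO replicate 1 (4.39 against 9.21%) and smallest in KO replicate 2 (4.81 against 4.92%). In responding tumor-like nuclei Jun was present in 73.8%, Egr1 in 65.5%, Junb in 63.1% and Ier2 in 60.7%, and Fos in 15.5% (13 of 84). In responding macrophage-like nuclei Jun and Junb were present in 73.3% each, Fos and Ier2 in 46.7% (7 of 15) and Egr1 in 33.3% (5 of 15). These shares describe the nuclei as chosen.

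The UMIs that the draw of 500 left over were not used to call a nucleus, so they give a second look at the same nuclei. In tumor-like nuclei all 10 members were higher in the left-over UMIs of responding nuclei than in those of other nuclei in 6 of 6 libraries, where 4.67% of 5699 genes were higher in every library by at least 0.58 log2 in the median and 4.61% lower. Atf3 stood at 412 CPM in responding and 7.70 CPM in other nuclei (median of the libraries' log2 folds 3.71, 3.19 to 4.50, on the scale of CPM plus 20). Ier2 stood at 1154 against 76.1 CPM (3.65, 2.65 to 5.12) and Jun at 2838 against 263 CPM (3.55, 2.40 to 5.23). Egr1 stood at 2007 against 113 CPM (3.20, 2.32 to 6.24) and Fos at 166 against 9.48 CPM (2.51, 1.36 to 4.59). The smallest difference was that of Fosb, at 73.1 against 6.18 CPM (1.53, 1.04 to 2.69), from 33 left-over UMIs. Summed over the responding nuclei of a library, the left-over UMIs thus held more of every member. For the low members this need not hold in each nucleus. The 2 sets of UMIs come from the same nuclei, so this describes those nuclei and gives no replicate of the condition.

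The genes outside the set that rose most with the members in tumor-like nuclei were Txnip (median log2 2.66), an inhibitor of thioredoxin and glucose uptake, Jund (2.56), the constitutive Jun protein, Zfp36 (2.47), which degrades inflammatory messages, the chemokine Cxcl10 (2.43), the histone H3.3 gene H3f3b (2.32), Peg10 (2.32), Homer1 (2.27), Tcim (2.26), the antiproliferative gene Btg2 (2.25) and the linker histone Hist1h1c (2.24). Each was higher in 6 of 6 libraries. Of the lists, 7 of 16 measured immediate-early transcription factors were higher in every library (list median 1.08, all genes −0.05), with Klf6 at 2.13, Ier5 at 2.01 and Myc at 1.5. Feedback inhibitors were higher in 8 of 18 (median 0.96), with Zfp36 at 2.47, Btg2 at 2.25, Nfkbia at 2.18 and Dusp8 at 1.98. AP-1 partners were higher in 3 of 7 (Jund, Atf4 and Mafg, list median 0.82) and integrated stress response and damage genes in 4 of 10 (Plk2, Plk3, Trib1 and Cdkn1a, list median 1.00). Heat-shock chaperones were higher in 1 of 8 (Dnaja1, 1.09), interferon-stimulated genes in 1 of 8 (Isg15, 0.97), G2/M genes in 2 of 12 (Plk1, 0.74, and Cdk1, 0.64) and hypoxia response genes in 1 of 5 (Vegfa, 0.67). The kinases and serum response factors that act upstream of the members were higher in 0 and lower in 2 of 14 (Elk3, −0.87, and Mapk9, −0.79, on 11 UMIs in responding nuclei, list median −0.26).

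In unassigned nuclei 8 of 10 members were higher in the left-over UMIs of responding nuclei in 6 of 6 libraries, and Fosb and Gadd45b in 5, where 5.88% of 4594 genes were higher in every library by at least 0.58 log2 in the median and 19.9% lower. Jun stood at 9397 CPM against 379 CPM (median log2 4.65, 2.51 to 6.13). Atf3 stood at 1396 against 18.8 CPM (4.65, 2.24 to 6.73) and Ppp1r15a at 903 against 46.7 CPM (4.08, 2.72 to 4.67). Other leading genes were Mapt (3.46), Tcim (3.43), Ier5 (3.40), Spag5 (3.22), the small GTPase gene Rhob (3.17), Hist1h2bc (3.06), Klf6 (2.97), Txnip (2.95), Gem (2.93) and Dnajb9 (2.83), a chaperone of the endoplasmic reticulum. AP-1 partners were higher in 5 of 7 (list median 1.53, all genes −0.27), other immediate-early transcription factors in 5 of 14 (1.80), feedback inhibitors in 7 of 16 (1.20) and stress response and damage genes in 3 of 9 (1.42). Heat-shock chaperones were higher in 2 of 7 (Dnajb1, 2.76, and Bag3, 0.67) and lower in 1 (Hspa8, −0.67), upstream kinases and serum response factors higher in 0 and lower in 4 of 12, led by Map3k1 (−2.40, on 3 UMIs in responding nuclei). Interferon-stimulated and hypoxia genes were higher in 0 of 8 and 0 of 5, and G2/M genes in 2 of 10.

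**Figure D5:**
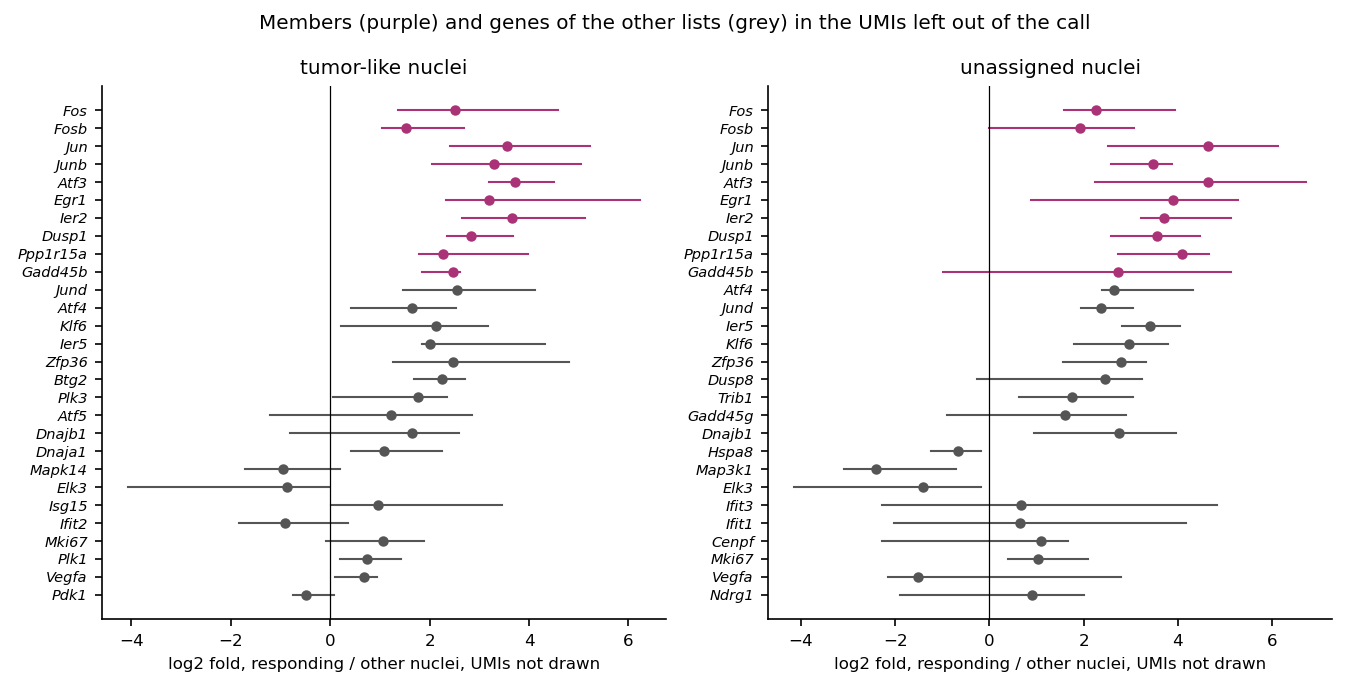
Log2 fold of responding over other nuclei in the UMIs left out of the call (on CPM plus 20), for the 10 members (purple) and up to 2 genes of each other list with the largest absolute fold (grey), in tumor-like (left) and unassigned nuclei (right). Points are medians of 6 libraries and lines run from the lowest to the highest library, and all 10 members lie right of 0 in every library of the tumor-like nuclei.

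Gene length moved with this split. The 266 genes higher in every library in responding tumor-like nuclei had a median span of 10.8 kb and the 263 lower genes 144 kb, against 39.9 kb over all genes measured there. In unassigned nuclei the 270 higher genes had a median span of 13.6 kb and the 912 lower genes 127 kb, against 41.9 kb. The tumor markers, whose share was lower in responding nuclei, have a median span of 125 kb. The part of gene length in these folds was not tested. In responding macrophage-like nuclei only 10728 UMIs were left over in 15 nuclei, so 25 genes could be measured, of which B2m (1.51) and H2-D1 (1.10) were higher and Fyb (−2.44, on 16 UMIs), Zeb2 (−0.67) and Lyn (−0.41) lower in 5 of 5 libraries. Jun, the only member with enough UMIs, was higher in 3 of 5. The other members had 0 (Fosb) to 11 (Ier2) left-over UMIs there and were higher in 0 (Fosb) to 3 (Junb) of 5 libraries. At these counts the left-over UMIs did not bear out the macrophage-like call library by library.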

How the data were processed

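Single nuclei were isolated from frozen subcutaneous TC1 tumors and sequenced as 3′ libraries, 3 labelled control (CO) and 3 labelled knockout (KO), grouped by their titles. The authors deposited whole-number UMI counts per gene and nucleus, made with Cell Ranger 3.0.2 on GRCm38 per the labels (the file headers give 3.1.0), with Seurat 5.2.1 named for later steps. Removal of ambient RNA is described for the study, but the deposited counts are whole numbers. Some samples had extra washes, and which ones is not given in the sources used here, nor is whether introns were counted.

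Nuclei with 100 to 7500 genes and under 20% mitochondrial counts were kept (18014 of 18865). The automatic Scrublet threshold (scanpy 1.11.5) marked 11 nuclei (0.0611%) and was not used. Instead the highest doublet scores, at 0.8% per 1000 nuclei of a library, were removed (500 nuclei). Classes were set by the percent of UMIs on up to 20 markers each. Tumor-like nuclei had at least 0.5% and 3 markers, and macrophage-like and T/NK-like nuclei at least 0.4% and 2 markers. The gate left out 8 markers of all lists, among them the tumor marker Cadm1, which was higher in macrophage-like nuclei. Tumor-like nuclei also had under 0.2% on the macrophage and on the T/NK list. Macrophage-like and T/NK-like nuclei had under 1% on the tumor list and under 0.4% on each other's list. A total of 198 nuclei met the levels of more than 1 class without fitting any, and 174 matched other cell types. These limits were set after marker levels were seen, and before the members were split by class. The members and gene lists were chosen with earlier results of these data known. UMI counts were summed per library and class and tested with edgeR 4.0.16 (R 4.3.3, TMM, quasi-likelihood, Benjamini-Hochberg adjustment over all genes that passed the low-count filter, standard errors from the F statistic). DESeq2 1.42.0 was an alternative. Class comparisons kept the library as a block. Shares were compared by exact permutation tests over libraries (SciPy 1.17.1). Held-out folds used genes with at least 20 UMIs in responding nuclei, or with as many expected there from their level in the other nuclei. The scripts were tested on simulated data. Depth was 13252572 to 22057084 UMIs per library, and replicates differed beyond sampling noise (chi-square per degree of freedom 8.75 to 202). Each library is labelled as a separate sample.

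Genes named beside the members were, for each list, up to 4 with the largest absolute held-out fold, the 10 leading held-out genes, and the 3 list genes with the largest fold in each class comparison. Other list genes named beside a count, and the pairs named, were chosen after their values were seen. Alternatives changed the tool, the low-count filter, the quality limits, the doublet step, the gates, the thinning, the number of members required and the libraries included. A wider tumor gate and the mean of 20 draws were added after the data were seen.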

Additional observations from a re-analysis of the deposited data

Results flagged for a closer look

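Among 13 sets of 6 library values tested for a value far from the rest (Dixon's test), 2 had one, and chance alone gives about 1 in 20. Atf3 differed between tumor-like and macrophage-like nuclei by −1.46 (log2 of CPM plus 1) in KO replicate 3, far below the other 5 libraries, and without that library the fitted difference was −0.46 and not called (adjusted p = 0.0807 by edgeR). Dusp1 differed by 1.42 in CO replicate 3, where macrophage-like nuclei held only 5.03 CPM, far above the other 5 libraries. The unassigned nuclei, which enter no test between classes, had a responding share of 4.13%, where a count of 0 would allow up to 0.149%.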

How the results depend on the processing

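For the 17 main results, 189 values under the alternatives were scored as unchanged, 16 as weaker, 2 as stronger, 8 as moved and 12 as reversed. For responding shares, unchanged meant the same direction and side of the threshold. For counts of called members it allowed some change, so that 4 calls against 6 were scored as unchanged. For median co-detection ratios, which have no test, it meant a move within the SD of the library medians. That of T/NK-like nuclei was 0 at every setting, since most pairs were never seen, so its unchanged scores carry no information. For single members, 807 kept their call, 12 lost one and 12 gained one.

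The difference KO minus CO in the responding share of tumor-like nuclei, 0.0795 percentage points, became −1.65 with at least 2 members, −0.000781 with at least 4, −0.511 at 1000 UMIs, −15.3 without thinning, −0.148 with the wider tumor gate and −0.00264 as the mean of 20 draws. It ran from −0.158 to 0.394 when each library was left out. The same difference in T/NK-like nuclei became −0.832 with at least 2 members and −0.461 without thinning, and in macrophage-like nuclei 0.0173 with at least 4. Tumor-like minus macrophage-like shares lost their call with at least 2 members (1.65) and with strict quality limits (1.52), as did tumor-like minus T/NK-like shares (2.39 and 1.5). Leaving out a library gave 0.509 to 0.719 and 0.58 to 0.828, where 5 libraries cannot pass the threshold. T/NK-like minus macrophage-like shares were 0.0165 with strict limits, and passed the threshold without thinning (−1.52) and over 20 draws (−0.261).

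Members called between KO and CO ranged from 0 to 3 in tumor-like and 0 to 2 in macrophage-like nuclei when each library was left out. With sums of thinned nuclei, 2 members were called between tumor-like and macrophage-like nuclei and 0 between T/NK-like and macrophage-like nuclei. The latter count was 2 with no low-count filter and 1 to 2 when a library was left out (2 without CO replicate 3 or KO replicate 3). Tumor-like against T/NK-like nuclei gave 1 to 3, with 1 without KO replicate 1. Thinned sums hold fewer counts. For the other settings the cause was not tested.

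Over all genes, KO against CO calls were 0 by edgeR and 12, 32 and 3 by DESeq2 in all, tumor-like and macrophage-like nuclei, and without KO replicate 1 they were 2587 in tumor-like, 1620 in macrophage-like and 88 in T/NK-like nuclei. The test of a different change in both classes gave 0, against 8 by DESeq2, 104 without KO replicate 1 and 47 with no low-count filter, a setting that gave 64 calls in T/NK-like nuclei. Between tumor-like and macrophage-like nuclei 3066 genes were higher and 2513 lower, against 2701 and 3098 without CO replicate 3.

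The replicate numbers were not taken as pairs. Same-numbered libraries had correlations of deviations of 0.57, −0.36 and 0.41, and the others ran from −0.62 to 0.42. So few libraries cannot settle whether the numbers pair the samples. With the replicate block no member call changed, genes at an unadjusted p under 0.05 went from 661, 861, 506 and 126 to 1065, 1832, 561 and 153 in all, tumor-like, macrophage-like and T/NK-like nuclei, 1 gene was called in T/NK-like nuclei, and the tumor-like difference in responding share stayed at 0.0795 points (exact permutation p = 0.750). Members at an unadjusted p under 0.05 by edgeR went from 0 to 2 in all nuclei and from 0 to 3 in tumor-like nuclei. They stayed at 0 in macrophage-like and T/NK-like nuclei.

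Fos, Fosb, Atf3, Dusp1 and Ppp1r15a rest on few UMIs per nucleus, so their pairs are counted in few nuclei. Responding nuclei depend on the draw of 500 UMIs, and T/NK-like nuclei were few, so that a count of 0 there allows a share of 2.33 to 9.68% by library.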
